A study of Volvox carteri with 4 samples.

Results

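Nucleotide sugars are sugars joined to a nucleoside diphosphate, the activated form from which glycosyltransferases build glycans. In *Volvox carteri*, a green alga of many small flagellated somatic cells and a few large reproductive cells called gonidia, the spheroid is mostly extracellular matrix (ECM) made of glycoproteins, many of them carrying arabinose and galactose on hydroxyproline. The genes described here serve a pair of routes. One leads through mannose phosphates to GDP-mannose and GDP-L-galactose, and the other oxidizes UDP-glucose to UDP-glucuronate, removes a carbon to give UDP-xylose, and ends in the pyranose and furanose forms of UDP-arabinose.

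The genes described are the 9 that encode 5 enzymes of these routes, out of 16008 gene models with counts: phosphomannose isomerase (*PMI1*, Vocar.0044s0015), GDP-mannose epimerase (*GME1*, Vocar.0007s0276), UDP-glucose dehydrogenase (*UGD1*, Vocar.0051s0034; *UGD2*, Vocar.0002s0240; *UGD3*, Vocar.0017s0014), UDP-xylose synthase (*UXS1*, Vocar.0040s0069) and UDP-arabinopyranose mutase (*RGP1*, Vocar.0028s0033; *RGP2*, Vocar.0001s0378; *RGP3*, Vocar.0006s0025). They were taken by locus, and all 9 were among the 13350 genes tested. The study had named these 5 enzymes because of their somatic levels in the same libraries, so their direction is not independent evidence. Its annotation lists 11 further genes of nucleotide sugar synthesis, of which 10 were tested.

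PolyA RNA was sequenced from 2 somatic and 2 gonidial preparations of strain Eve, taken from hatched adult spheroids at hour 42 of the life cycle, in the light. Somatic cells were collected as sheets and gonidia as pellets from Percoll gradients. Strain and stage were the same for both, and no treatment was compared. The cell-types came from separate cultures and were handled differently before lysis. Spheroids were broken with a loose pestle for gonidia, and with a tight pestle and more passes for somatic cells. Somatic cells were also spun harder and for longer. Handling thus differed along with cell-type, and its part in the differences was not tested. Total counts were between 10838222 and 13104583 per library. Reads from the 5 somatic markers (*regA*, *ssgA*, *dyhA*, *IFT172*, *IC2/ODA6*) summed to 90101 and 89549 normalized counts in the somatic libraries and to 68.6 and 74.9 in the gonidial libraries, and the 3 gonidial markers (*gspk47*, *G167*, *G36*) to 3136 and 4229 in the somatic libraries and 37181 and 41677 in the gonidial libraries. Both labels therefore fitted their markers, with *regA* at 0 counts in gonidial replicate 2. All values are shares of a library's RNA, and more RNA per cell cannot be told apart from more of the cells that hold it.

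A gene was called somatic or gonidial where edgeR's quasi-likelihood test gave an adjusted p under 0.05 and the change was at least 2-fold, and specific above 5-fold. Of the 9 genes, 6 were called somatic, where 26% of all tested genes were, and 1 was called gonidial, where 46.7% were. *PMI1* and *UXS1* were somatic-specific, a class that held 16.9% of tested genes, while *GME1*, *UGD1*, *RGP1* and *RGP2* were somatic-biased, *UGD3* was gonidial-biased, and *UGD2* and *RGP3* stayed under 2-fold. The median log2 fold change, somatic over gonidial, was 1.64 over the 9 genes and -0.85 over all tested genes. Together the 9 genes took 0.267% and 0.297% of the counts in the somatic libraries, against 0.0838% and 0.0765% in the gonidial libraries. An adjusted p under 0.05 at any fold was reached by 8 of the 9 genes, where 80.9% of tested genes reached it. Somatic and gonidial libraries stood apart without overlap for 8 of the 9, where 90.6% of tested genes did so.

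**Figure D1:**
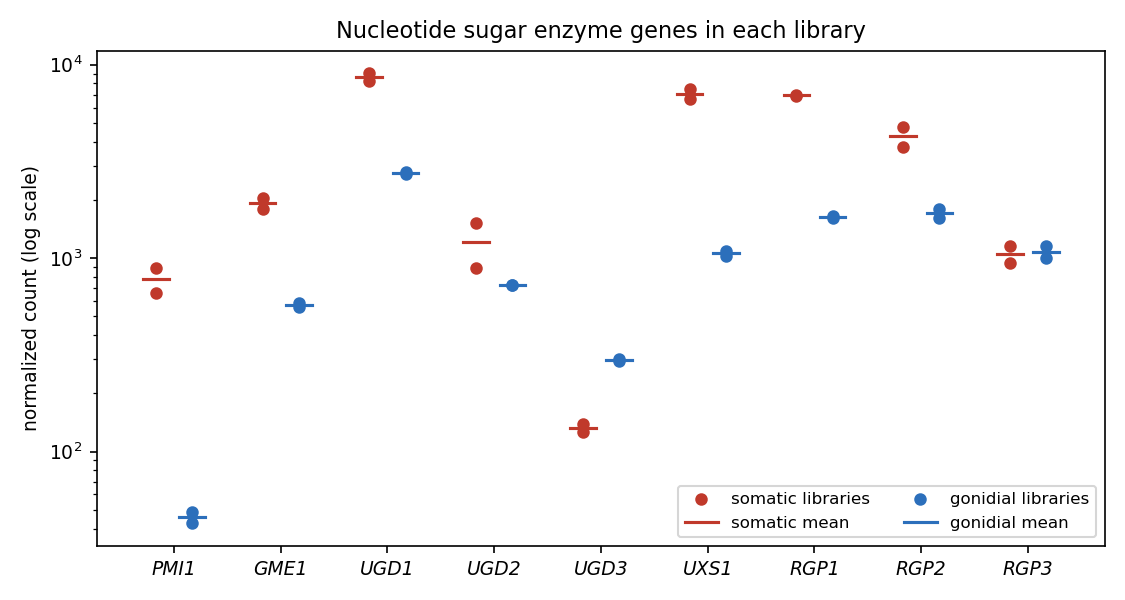
Normalized counts on a log axis of the 9 genes in each of the 2 somatic (red, left) and 2 gonidial (blue, right) libraries, with the mean of each cell-type as a bar. Points of the 2 cell-types meet only at *RGP3*, *PMI1* spans the widest gap, and *UGD3* alone has both gonidial points above both somatic points.

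The mannose route begins at *PMI1*, whose enzyme interconverts fructose and mannose phosphates. *PMI1* had 660 and 891 normalized counts in somatic cells, against 42.6 and 48.8 in gonidia. Both somatic libraries stood far above both gonidial ones, and the log2 fold change of 4.08 ± 0.29 (SE, n = 2 per cell-type; edgeR adjusted p = 1.69e-10) corresponds to 16.9-fold, with a 95% confidence interval of 11.1 to 25.8. This was the largest change of the 9 and lay at the 90.4th percentile of all tested genes. The gonidial level of *PMI1* was 5.90% of the somatic level. The 5 somatic markers reached at most 0.258% of their somatic level in a gonidial library. The part of somatic cells in the gonidial *PMI1* reads was not tested. In rank, *PMI1* was at the 86.8th percentile of normalized counts in somatic cells and at the 34.8th percentile in gonidia.

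The following steps of this route differed less between the cell-types. *PMM1*, for phosphomannomutase, which moves the phosphate of mannose phosphate, had 299 and 471 normalized counts in somatic cells and 211 and 240 in gonidia, a log2 fold change of 0.77 ± 0.26 that stayed under 2-fold (edgeR adjusted p = 0.0115). *GMP1*, for the pyrophosphorylase that makes GDP-mannose, had 3798 and 4814 normalized counts in somatic cells, against 1974 and 1920 in gonidia, and was called somatic at 1.15 ± 0.21 (edgeR adjusted p = 6.05e-05). That call was lost without somatic replicate 2, where the value was 0.96, and with glmTreat. *PMM1* passed 2-fold with TMM (1.35), with DESeq2 size factors (1.47) and without somatic replicate 1 (1.06).

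*GME1* encodes the epimerase that turns GDP-mannose into GDP-L-galactose, which in land plants is also a precursor of ascorbate. Its normalized counts were 2042 and 1793 in somatic cells, against 585 and 560 in gonidia. The replicates of each cell-type lay close together and the cell-types apart, at a log2 fold change of 1.74 ± 0.22 (edgeR adjusted p = 6.65e-07), or 3.35-fold. Thus 3 of the 4 genes of the mannose route were called somatic, where 26% of all tested genes were, with the largest change at its first step. Of these, *PMI1* and *GME1* had been named by the study for their somatic levels, and the call of *GMP1* did not hold in every alternative.

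**Figure D2:**
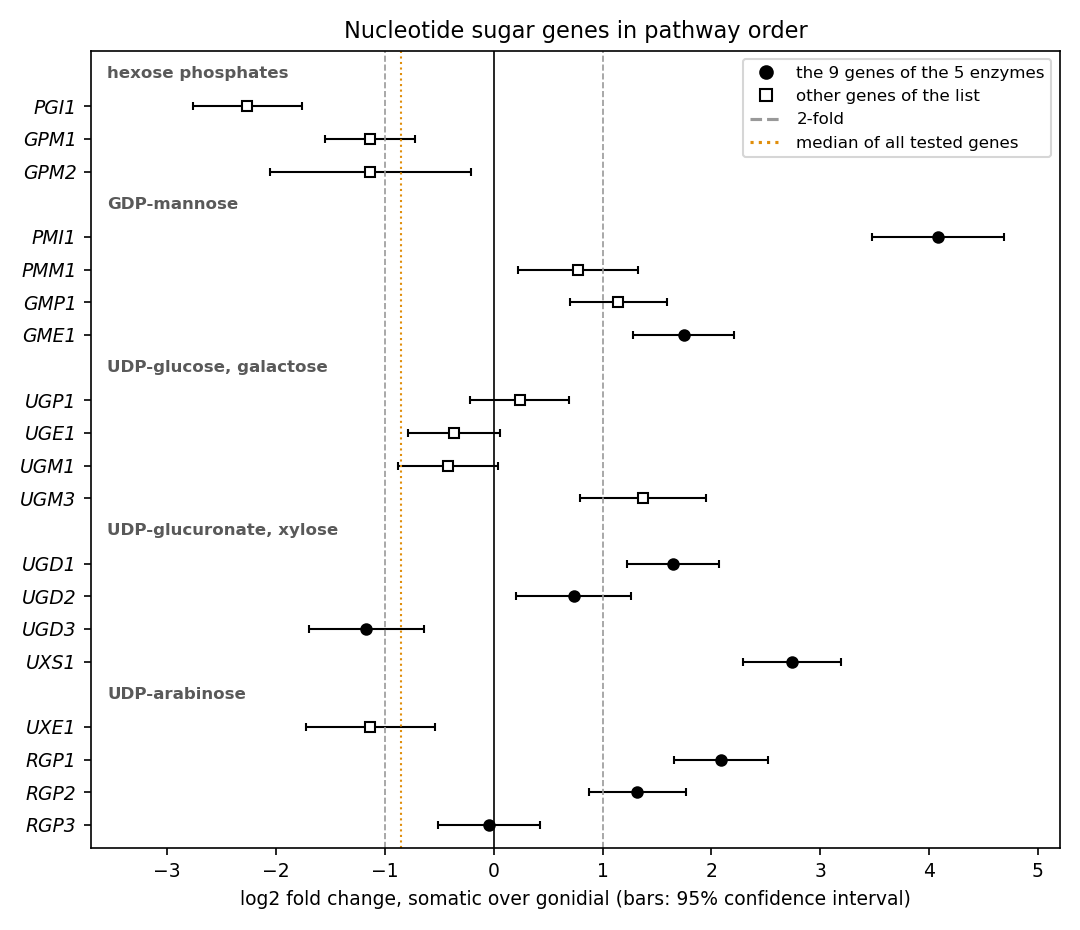
Log2 fold change, somatic over gonidial, with 95% confidence interval for the 19 tested genes of nucleotide sugar synthesis in pathway order, the 9 genes described here as filled circles and the other genes as open squares. Dashed lines mark 2-fold and the dotted line marks the median of all tested genes at -0.85. *PMI1* (4.08) and *UXS1* (2.74) lie farthest to the right and *PGI1* (-2.27) farthest to the left.

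The UDP-glucose route enters at UDP-glucose dehydrogenase, which makes UDP-glucuronate. Summed over the 3 *UGD* genes, normalized counts were 9243 and 10680 in somatic cells, against 3822 and 3743 in gonidia, a log2 fold change of 1.40 ± 0.20 (edgeR adjusted p = 3.01e-06). Most of this sum came from *UGD1*, with 8215 and 9032 normalized counts in somatic cells, against 2801 and 2715 in gonidia. Its log2 fold change was 1.64 ± 0.20 (edgeR adjusted p = 3.95e-07), or 3.13-fold.

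*UGD2* had 890 and 1521 normalized counts in somatic cells and 726 in each gonidial library. Somatic replicate 1 thus lay much nearer to the gonidial libraries than somatic replicate 2 did. The log2 fold change of 0.73 ± 0.25 had an edgeR adjusted p of 0.0122 and stayed under 2-fold. It depended on the somatic library used, at 0.29 (edgeR adjusted p = 0.189) without somatic replicate 2 and at 1.07, past 2-fold, without somatic replicate 1.

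*UGD3* had 139 and 126 normalized counts in somatic cells, against 295 and 302 in gonidia, and was the only one of the 9 genes called gonidial. Its log2 fold change was -1.17 ± 0.25 (edgeR adjusted p = 3.09e-04), or 2.25-fold higher in gonidia, with a 95% confidence interval of -1.70 to -0.64. Relative to the median tested gene the difference was -0.32. The call did not hold with TMM normalization (-0.57) or DESeq2 size factors (-0.47), although the direction did, nor against a 2-fold null with glmTreat (edgeR adjusted p = 0.143). With either scaling 7 of the 9 genes rather than 6 were called somatic because *UGD2* passed 2-fold. Of all tested genes, TMM put 32.3% on the somatic and 37.7% on the gonidial side, and DESeq2 size factors 33.8% and 36%. The 3 gonidial markers stood in somatic libraries at 3.68% to 16.3% of their gonidial level, and *UGD3* stood at 44.4%. The part of gonidial cells in the somatic reads of *UGD3* was not tested.

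*UXS1* encodes the synthase that decarboxylates UDP-glucuronate to UDP-xylose, itself a sugar donor and the source of UDP-arabinose. It had 7464 and 6683 normalized counts in somatic cells, against 1029 and 1085 in gonidia. The log2 fold change was 2.74 ± 0.21 (edgeR adjusted p = 6.85e-10), or 6.69-fold, second to *PMI1* among the 9. Unlike *PMI1*, *UXS1* was abundant in both cell-types, at the 98.0th percentile of normalized counts in somatic cells and at the 91.0th percentile in gonidia.

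The next step was called in the opposite direction. *UXE1*, for the epimerase that makes UDP-arabinopyranose from UDP-xylose, was the one listed gene of that step and had few reads, 80 and 77 counts in somatic cells, against 163 and 148 in gonidia. It was called gonidial at a log2 fold change of -1.13 ± 0.28 (edgeR adjusted p = 0.00117), a call lost with TMM (-0.53), with DESeq2 size factors (-0.43), with glmTreat and without somatic replicate 2 (-0.94).

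UDP-arabinopyranose mutase then converts the pyranose to the furanose form, which is the form arabinosyltransferases attach to hydroxyproline. Summed over the 3 *RGP* genes, normalized counts were 11715 and 12804 in somatic cells, against 4611 and 4234 in gonidia, a log2 fold change of 1.47 ± 0.20 (edgeR adjusted p = 1.37e-06). *RGP1* had 7002 and 6885 normalized counts in somatic cells, against 1652 and 1613 in gonidia, and rose by 2.09 ± 0.21 on the log2 scale (edgeR adjusted p = 1.98e-08), or 4.25-fold. *RGP2* had 3766 and 4766 in somatic cells, against 1799 and 1619 in gonidia, and rose by 1.32 ± 0.21 (edgeR adjusted p = 1.37e-05), or 2.50-fold.

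*RGP3* had 948 and 1153 normalized counts in somatic cells, against 1159 and 1002 in gonidia, so that its libraries overlapped. The log2 fold change was -0.04 ± 0.22 (edgeR adjusted p = 0.870), with a 95% confidence interval of -0.51 to 0.43. A change of 2-fold either way lies outside that interval at this scaling, but the sign turned to 0.55 (edgeR adjusted p = 0.0139) with TMM and 0.66 with DESeq2 size factors, both under 2-fold.

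Within each family the 3 paralogs therefore did not all share a cell-type pattern, although *RGP1* and *RGP2* were both called somatic. A test of whether the 3 fold changes of a family differ, limma's diffSplice on voom values fitted over all tested genes, gave F = 35.0 for *UGD* and F = 35.9 for *RGP*, with an adjusted p of 9.80e-06 over the 2 families in both cases. The log2 fold change of *UGD1* exceeded that of *UGD3* by 2.82, and that of *RGP1* exceeded that of *RGP3* by 2.13. Ratios within a library do not depend on how libraries are scaled. For each *UGD3* read there were 59.3 and 71.4 *UGD1* reads in the somatic libraries, against 9.49 and 9.004 in the gonidial libraries, and for each *RGP3* read there were 7.39 and 5.97 *RGP1* reads in the somatic libraries, against 1.43 and 1.61 in the gonidial libraries. The diffSplice fit also set each paralog against the other members of its own family, weighted by their precision rather than equally. On that measure *UGD2* differed by -0.06 and *RGP2* by 0.20 on the log2 scale (diffSplice adjusted p = 0.836 and 0.442 over the 6 paralogs). *UGD1* differed by 1.66, *UGD3* by -2.40, *RGP1* by 1.40 and *RGP3* by -1.74.

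Per length, the make-up of each family differed between the cell-types. In RPKM, counts scaled to gene length and library total so that genes of different length can be compared, *UGD1* made 86.6% and 81.3% of the summed *UGD* level in the somatic libraries, against 69.8% and 69.0% in the gonidial libraries, and was the leading paralog in all 4 libraries. *UGD3* made 1.38% and 1.08% in the somatic libraries, against 6.96% and 7.25% in the gonidial libraries. For *RGP* the leading paralog per length itself changed, which was not tested. In counts *RGP1* and *RGP2* were nearly equal in gonidia, at 0.918 and 0.997 *RGP1* reads for each *RGP2* read. In the somatic libraries there were 1.86 and 1.44. *RGP1* made 58.1% and 52.1% of the summed level in the somatic libraries, against 35.4% and 37.6% in the gonidial libraries, where *RGP2* led with 43.3% and 42.4%. *RGP3* made 6.73% and 7.45% in the somatic libraries, against 21.2% and 19.98% in the gonidial libraries. Only uniquely mapped reads were counted, and how alike the sequences of these paralogs are was not analysed here.

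**Figure D3:**
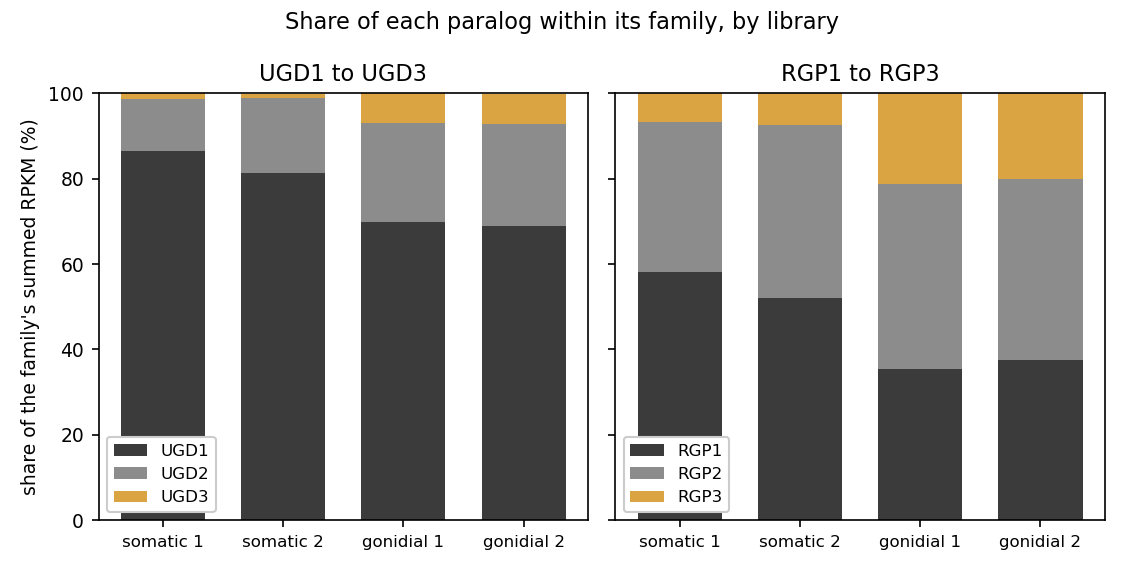
Share of each paralog in its family's summed RPKM (percent, stacked bars) in the 2 somatic libraries (left) and the 2 gonidial libraries (right), for *UGD1* to *UGD3* and *RGP1* to *RGP3*. *UGD1* is the largest block in every library, while *RGP1* leads in the somatic libraries and *RGP2* in the gonidial libraries.

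Levels per length spread widely among the 9 genes. In somatic cells *UXS1* was the most abundant with 554 and 523 RPKM, followed by *UGD1* with 366 and 424 and *RGP1* with 212 and 219. The order then ran through *RGP2*, *GME1*, *UGD2*, *RGP3* and *PMI1* to *UGD3* with 5.84 and 5.61 RPKM. Only *RGP3* (24.5 and 31.4 RPKM) and *PMI1* (19.9 and 28.4 RPKM) had overlapping somatic values among neighbours in that order. In gonidia *UGD1* came first with 121 and 111 RPKM, ahead of *UXS1* with 73.9 and 74.3, and *PMI1* was last with 1.25 and 1.36. Among gonidial neighbours only *GME1* (27.7 and 25.2 RPKM) and *RGP3* (29.0 and 23.9 RPKM) overlapped. With 2 libraries per cell-type an exact permutation test on 1 gene cannot go below p = 0.333, so these orders are given as values.

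Each step was also set over the one before it within a library, as a ratio of RPKM. These ratios were chosen after values were seen and carry no test. At the entry to the mannose route, *PMI1* over *PGI1*, whose enzymes share fructose phosphate, was 0.565 and 0.478 in somatic cells, against 0.00557 and 0.00707 in gonidia. *PMM1* over *PMI1* was lower in somatic cells, at 0.740 and 0.863, against 8.08 and 8.01 in gonidia. The 2 later ratios of this route lay closer together, with *GMP1* over *PMM1* at 11.2 and 9.05 in somatic cells, against 8.27 and 7.08 in gonidia, and *GME1* over *GMP1* at 0.602 and 0.417 in somatic cells, against 0.332 and 0.326 in gonidia.

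In the other route, summed *UGD* over *UGP1*, for the pyrophosphorylase that makes UDP-glucose, was 15.9 and 16.7 in somatic cells, against 7.47 and 7.40 in gonidia. *UXS1* over summed *UGD* was 1.31 and 1.003 in somatic cells, against 0.428 and 0.460 in gonidia. *UXE1* over *UXS1* was lower in somatic cells, at 0.00621 and 0.00524, against 0.0888 and 0.0798 in gonidia. Summed *RGP* over *UXE1* was 106 and 154 in somatic cells, against 20.8 and 20.2 in gonidia, but over *UXS1*, with the *UXE1* step passed over, summed *RGP* was 0.657 and 0.806 in somatic cells, against 1.84 and 1.61 in gonidia.

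**Figure D4:**
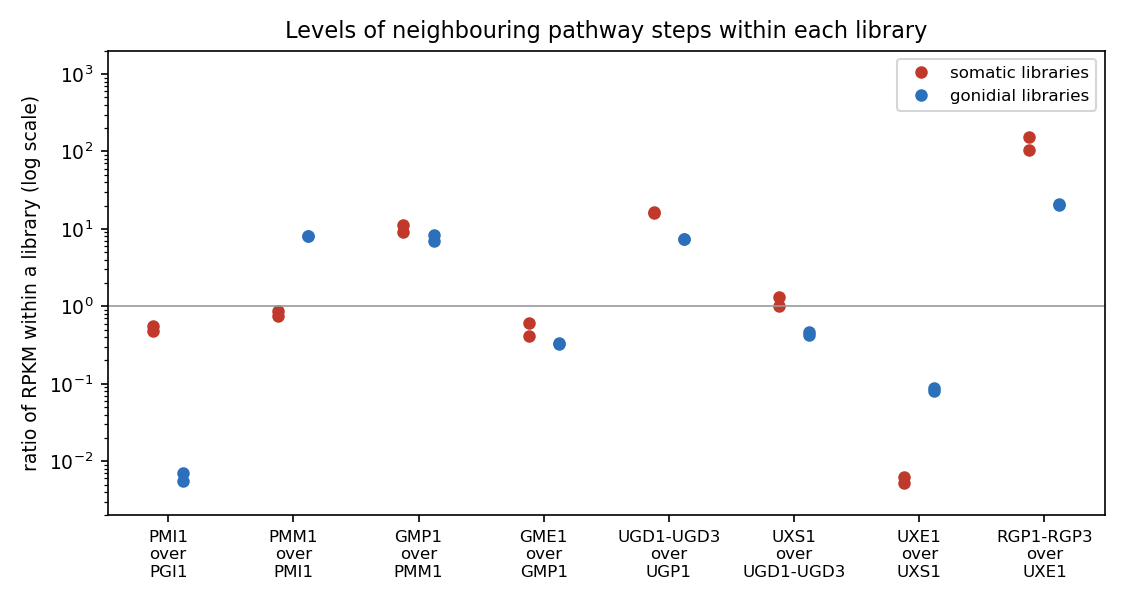
Ratio of RPKM of each step over the step before it within each library, on a log axis, with 2 somatic (red, left) and 2 gonidial (blue, right) points per ratio. Of the 8 ratios, 6 are higher in both somatic libraries and 2, *PMM1* over *PMI1* and *UXE1* over *UXS1*, are lower, with the widest gap at *PMI1* over *PGI1* (0.565 and 0.478 against 0.00557 and 0.00707) and the narrowest at *GMP1* over *PMM1* (11.2 and 9.05 against 8.27 and 7.08).

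Of the 10 other tested genes of the list, 2 were called somatic (*GMP1* and *UGM3*), where 26% of all tested genes were, and 4 gonidial (*PGI1*, *GPM1*, *GPM2* and *UXE1*), where 46.7% were, shares close to those over all genes, with a median log2 fold change of -0.40 against -0.85 over all tested genes. *PGI1*, for the isomerase between glucose and fructose phosphates, had 1022 and 1633 normalized counts in somatic cells, against 6717 and 6055 in gonidia, and fell by 2.27 on the log2 scale (SE 0.24, edgeR adjusted p = 4.76e-08). The phosphoglucomutase gene *GPM1* fell by 1.14 (SE 0.20, edgeR adjusted p = 3.10e-05) and *GPM2*, with only 13 and 17 counts in somatic cells against 39 and 20 in gonidia, by 1.13 (SE 0.44, edgeR adjusted p = 0.0242). Both calls were lost with TMM, with DESeq2 size factors and with glmTreat, and that of *GPM2* also with plain totals, with DESeq2's Wald test and without gonidial replicate 1.

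*UGP1* had a log2 fold change of 0.24 ± 0.22 (edgeR adjusted p = 0.316). *UGE1*, for the epimerase between UDP-glucose and UDP-galactose, which draws on the same UDP-glucose as UDP-glucose dehydrogenase, had -0.37 ± 0.20 (edgeR adjusted p = 0.0984), with the sign turned to 0.23 under TMM and 0.33 under DESeq2 size factors. Per length, summed *UGD* over *UGE1* was 3.58 and 4.31 in somatic cells, against 1.20 and 1.15 in gonidia. Of the UDP-galactopyranose mutase genes, which make the furanose form of UDP-galactose, *UGM3* rose by 1.37 ± 0.28 (edgeR adjusted p = 1.57e-04), at low counts of 258 and 244 in somatic cells against 94 and 82 in gonidia. *UGM1* had -0.42 ± 0.22 (edgeR adjusted p = 0.0836, and 0.17 under TMM). *UGM2* had 0 and 0 counts in somatic cells and 0 and 1 in gonidia and was not tested.

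Glycosyltransferases predicted to use such donors were listed by the study as well. Of the 17 arabinosyltransferase genes (the HPAT, RRA and XEG113 groups), which build arabinose chains on hydroxyproline, 9 were called somatic and 2 gonidial, against 26% and 46.7% of all tested genes, with a median log2 fold change of 1.32 against -0.85. With TMM 12 and with DESeq2 size factors 13 were called somatic, where 32.3% and 33.8% of all tested genes were. Their counts summed to 12761 and 18102 in somatic cells, against 4843 and 4039 in gonidia. The largest change toward somatic cells was that of *XEG113-5*, with 246 and 256 counts in somatic cells, against 7 and 11 in gonidia (4.63 ± 0.37, edgeR adjusted p = 9.90e-10), and toward gonidia that of *XEG113-10*, with 18 and 23 counts in somatic cells, against 100 and 77 in gonidia (-2.27 ± 0.35, edgeR adjusted p = 7.70e-06).

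The 14 listed genes annotated as glucuronyltransferases, *INVC* and its relatives, had few reads. The study assigned them by homology to LARGE glycosyltransferases, and which donors they use was not tested here. Of the 12 tested, 2 were called somatic and 4 gonidial, where 26% and 46.7% of all tested genes were, with a median of -0.55 against -0.85, and their counts summed to 831 and 1406 in somatic cells and 1144 and 914 in gonidia. *INVCL5* had the largest called change toward somatic cells, with 41 and 87 counts in somatic cells, against 17 and 20 in gonidia (1.58 ± 0.39, edgeR adjusted p = 0.00108). *INVCL10* had the largest toward gonidia, with 3 and 3 counts in somatic cells, against 34 and 33 in gonidia (edgeR adjusted p = 5.36e-06). Of the 5 other listed glycosyltransferases 0 were called somatic and 1 gonidial, where 26% and 46.7% of all tested genes were, a list too short to compare with those shares. The gonidial call was *GALT1*, hydroxyproline galactosyltransferase (-1.37 ± 0.27), and it was lost with TMM (-0.77) and with DESeq2 size factors (-0.66).

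How the libraries were scaled moved all 9 genes by nearly the same amount. The median of all tested genes was -0.24 with TMM and -0.13 with DESeq2 size factors, shifts of 0.61 and 0.73 from the value used here. The 6 genes called somatic passed in all 13 alternatives, with *PMI1* at 3.85 to 4.78 and *UXS1* at 2.66 to 3.45 on the log2 scale. The differences within the *UGD* and *RGP* families passed in all 11 alternatives in which they could be tested. Other scalings and filters could hardly move these differences, which compare genes within a library. With 1 library left out, *UGD1* exceeded *UGD3* by 2.68 to 2.95, and *RGP1* exceeded *RGP3* by 1.98 to 2.29.

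**Figure D5:**
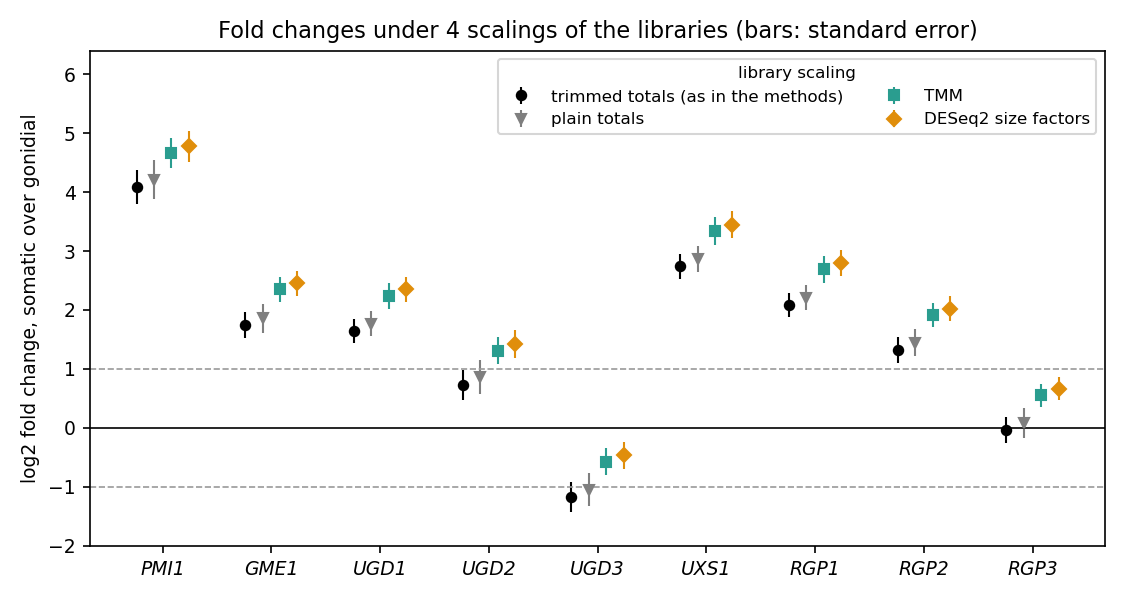
Log2 fold change, somatic over gonidial, of the 9 genes with its standard error under 4 scalings of the libraries (trimmed totals, plain totals, TMM, DESeq2 size factors), with dashed lines at 2-fold. Values climb together from trimmed totals to DESeq2 size factors, *UGD2* passes 2-fold with TMM (1.31) and DESeq2 size factors (1.43), *UGD3* leaves the gonidial calls and *RGP3* changes sign.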

How the data were processed

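Counts of reads per gene model were deposited for 2 somatic and 2 gonidial libraries without normalization. The authors trimmed reads with Trimmomatic, mapped them with STAR against the V2 assembly, and used HTSeq to assign reads with a unique position. Libraries were grouped by cell-type.

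The library size was the total left after the upper 0.3% of counts was removed, and normalized counts were scaled to it. Genes in the bottom 10% of mean normalized count were left out and 13350 genes were tested with edgeR 4.0.16 (quasi-likelihood test, Benjamini-Hochberg adjustment, 2 residual and 17.1 prior degrees of freedom). Each RPKM value was made from the count plus 0.1 and the library's total count, with gene lengths recovered from the mean RPKM of the study and the counts. Differences within paralog families were tested with limma 3.58.1 (voom, diffSplice). edgeR's own diffSpliceDGE had been planned but could not be fitted with so few families. The edgeR test and the paralog test, but not the other steps, were tried on simulated data in R 4.3.3. The edgeR test gave an adjusted p under 0.05 to 157 of 200 changed genes and to 3 of 11899 unchanged genes. That simulation had as many genes raised as lowered and the same dispersion for every gene. In the data 80.9% of tested genes reached an adjusted p under 0.05 (edgeR), so the simulated rates may not carry over. At p under 0.05 the paralog test found 43 of 49 families with 1 differing paralog and called 4 of 50 families with equal paralogs. Figures were drawn with matplotlib 3.10.9.

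Total counts were 10838222 and 13104583 in the somatic libraries and 11583555 and 11650101 in the gonidial libraries. A count of 0 allows 3 counts, or 0.229 to 0.277 CPM, which covers counting error only. The methods describe the replicates as biological. The p-values rest on the spread between these preparations, drawn for each gene largely from the spread pooled over all genes. Replicate numbers did not pair libraries (correlation of deviations -0.04 over genes).

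The 9 genes and the lists were chosen with earlier results of these data known, from the study's annotation. Named are the 9 genes, the other nucleotide sugar genes that were called or adjoin them, and the glycosyltransferases with the largest called change in each direction. *UGE1*, *UGM1*, *UGM2* and *GALT1* were added after their values were seen. Alternatives were TMM, DESeq2 1.42.0 size factors and its Wald test, plain totals, glmTreat, other filters on low counts, a replicate block, ratios of RPKM and each library left out in turn. Sequences and coordinates of the genes were not used here.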

Additional observations from a re-analysis of the deposited data

How the results depend on the processing

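Of 438 values computed under alternatives for 34 results, 395 were rated the same as the main value. For a tested fold change or family difference this meant the same direction and the same side of the threshold. Counts of calls were allowed a small change, so that 6 and 7 somatic calls among the 9 genes were rated alike. Ratios of summed RPKM, which carry no test, had to lie within the standard error of the main value. With TMM, with DESeq2 size factors and with glmTreat, 0 of the 9 genes were called gonidial and 1 of the other nucleotide sugar genes was. Of all tested genes 37.7%, 36% and 40.7% were called gonidial with these settings. With glmTreat 1 of the other nucleotide sugar genes was called somatic, where 22.6% of all tested genes were. *RGP3* turned to 0.55 with TMM, 0.66 with DESeq2 size factors and 0.081 with plain totals, to 0.068 without gonidial replicate 1 and 0.093 without somatic replicate 1, and ranged from -0.19 to 0.093 with 1 library left out. *UGE1* turned to 0.23 and 0.33 and *UGM1* to 0.17 and 0.28 with TMM and DESeq2 size factors. These scalings raise the median of all genes by 0.61 and 0.73, which by construction raises each gene by about as much. With 1 library left out, 6 to 7 of the 9 genes were called somatic and 1 gonidial, and of the other nucleotide sugar genes 1 to 3 somatic (1 without somatic replicate 2) and 3 to 4 gonidial. The lone library of a cell-type is then taken to vary like the other. Over all genes, calls numbered 3471 somatic and 6233 gonidial, 4314 and 5031 with TMM, 4508 and 4810 with DESeq2 size factors, and 2271 and 3479 among the 8826 genes with at least 10 counts in every library.

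The fit with the replicate number as a block called 6 of the 9 genes somatic and 1 gonidial, where 25.8% and 46.6% of all tested genes were. It left *UGD1* at 1.64, and changed no call among the nucleotide sugar genes and glycosyltransferases given with a test. Depth limits *GPM2*, *UGM2* and the least abundant glucuronyltransferases, which had under 50 counts in every library. The 2 libraries per cell-type limit everything, since an exact permutation test of 2 against 2 cannot give a p below 0.333.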
